A study of Homo sapiens with 9 samples.

Results

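RNA polymerase II peaks that were listed in HEK293T cells after knockdown of U2AF1 and after knockdown of DHX9, but not under the control shRNA, are described here. They were chosen from the deposited intervals: each is a U2AF1 knockdown peak overlapping a DHX9 knockdown peak by 1 bp or more and overlapping no control peak. There were 363 such peaks among the 1730 of the U2AF1 knockdown list, or 21%, and the 3 lists held 8930 peaks together (control 2757, DHX9 knockdown 4443). They overlapped 360 of the 4443 DHX9 knockdown peaks, or 8.1%. Presence and absence in the lists chose these peaks, so their presence after both knockdowns and absence from the control list is a description and no result.

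The lists come from chromatin immunoprecipitation with an antibody to POLR2A, the catalytic subunit of the polymerase, followed by sequencing (ChIP-seq). HEK293T is a human embryonic kidney cell line. Its 3 conditions were a control shRNA in cells labelled wildtype, U2AF1 knockdown and DHX9 knockdown, each with 2 ChIP replicates and 1 input sample, and the shRNA sequences, the time of knockdown and the remaining U2AF1 and DHX9 levels are not given in the labels. Each condition is represented by 1 deposited peak list, without replicate error, and both knockdowns share the control list. The list lengths bear on the count: with a −log10 q of at least 5 in the knockdown lists it was 146, with that limit in all lists 178, and with lists of equal length 208.

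RNA polymerase II transcribes protein-coding genes and many noncoding RNAs, and it accumulates just downstream of start sites, where it pauses before elongation. U2AF1 is the small subunit of the factor that recognises the AG at the 3′ splice site. DHX9 is a helicase that unwinds RNA and DNA structures, among them R-loops, in which a new RNA pairs with its DNA template and displaces the other DNA strand. Ribosomal RNA genes are transcribed by other polymerases, RNA polymerase I for the 45S precursor and RNA polymerase III for 5S RNA.

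The 363 peaks fell into unlike kinds of sequence. In 235 of them, 64.7%, at least 50% of the 31-base words of the peak occurred once in the genome (hg38), and these are called unique sequence below. Of these 235, 229 had their summit, the position of highest signal, within 1000 bp of an annotated transcript start. The other 128 peaks consisted of 37 in 45S ribosomal DNA, 21 in the tandem array of 5S genes on chromosome 1, 69 in other repeated sequence (19% of 364 such U2AF1 knockdown peaks) and 1 on an alternate contig (7.69% of 13). For unique sequence the share was 18.9% of 1244. Reads from near-identical copies can be placed on any of them, so the copy under a peak in repeated sequence is uncertain.

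At unique start sites the 90 bases upstream of the canonical start are shown, with coordinates in hg38, for 4 genes named by the rule. In these 4 genes the bases lay wholly inside both knockdown peaks and held no annotated untranslated or coding exon. The 4 are examples, and other named genes may meet the same conditions. Capitals mark GGGCGG, the core of the site bound by Sp1, in LRRC58 and CCAAT, bound by NF-Y, in CDC20, on either strand. MRPL12 and ZNF852 held neither in these bases.
LRRC58, chr3:120349355-120349444, minus strand: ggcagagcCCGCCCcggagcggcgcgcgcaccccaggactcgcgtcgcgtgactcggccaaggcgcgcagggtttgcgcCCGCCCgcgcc
MRPL12, chr17:81703277-81703366, plus strand: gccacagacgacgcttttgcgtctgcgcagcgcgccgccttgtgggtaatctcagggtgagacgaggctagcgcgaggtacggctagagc
ZNF852, chr3:44510637-44510726, minus strand: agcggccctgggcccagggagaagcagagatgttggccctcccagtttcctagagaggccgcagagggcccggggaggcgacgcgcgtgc
CDC20, chr1:43358891-43358980, plus strand: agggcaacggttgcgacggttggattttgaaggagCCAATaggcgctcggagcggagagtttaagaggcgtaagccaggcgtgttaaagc

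Strength was described by the fold over background that the authors' peak caller gave each peak, within each list. Among the 363 peaks the U2AF1 knockdown fold ran from 1.22 to 16.1 with a median of 4.50, and the DHX9 knockdown fold from 1.34 to 12.01 with a median of 4.86. In the rank order of the U2AF1 knockdown list, where 1 is the highest fold of 1730, their median was 986. In the DHX9 knockdown list it was 2739 of 4443. The 5S peaks had a median U2AF1 knockdown fold of 2.67, the 45S peaks 2.92, other repeated sequence 2.86 and unique sequence 4.79. Peaks in repeated sequence thus had lower folds than those in unique sequence, but their −log10 q in the U2AF1 knockdown list was not lower, with medians of 7.29 in the 5S array and 9.95 in 45S ribosomal DNA against 4.72 in unique sequence.

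**Figure D1:**
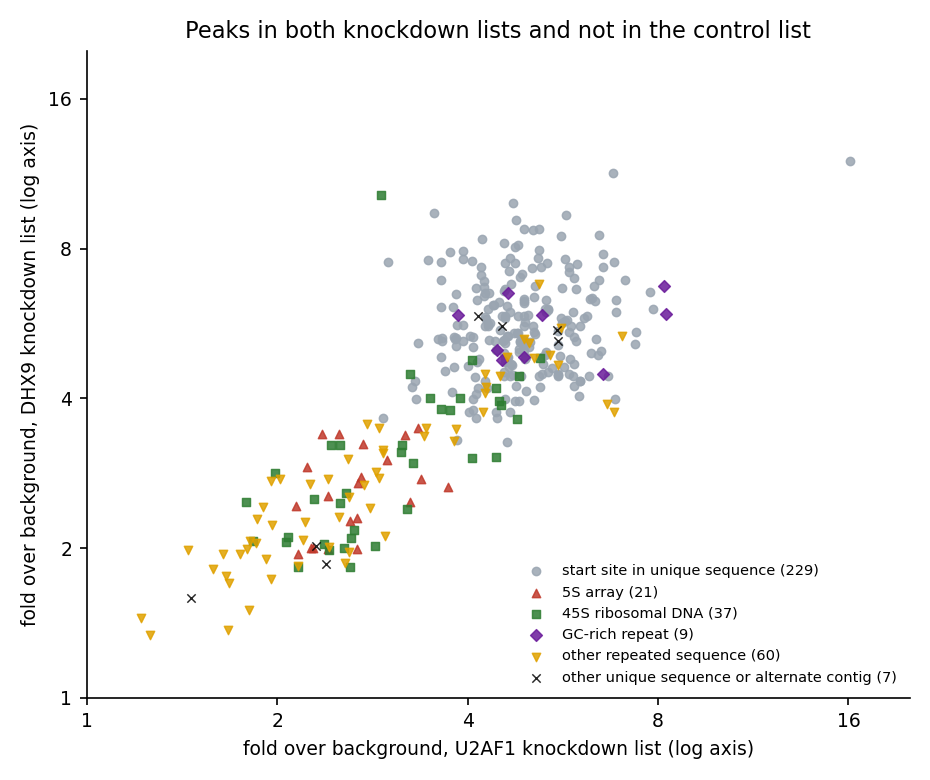
Fold over background in the U2AF1 knockdown list (horizontal, log axis) and in the DHX9 knockdown list (vertical, log axis) for each of the 363 peaks, with colour and marker by kind of sequence. The 5S array reaches 3.73 in the U2AF1 knockdown list, while start sites in unique sequence have medians of 4.81 and 5.44 in the U2AF1 and DHX9 knockdown lists.

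Across all 363 peaks the folds in both knockdown lists had a Spearman rho of 0.63, and the kinds of sequence lay at different levels. Within the 229 unique start sites rho was 0.12. It was 0.91 over the 69 peaks in other repeated sequence, 0.71 over the 37 in 45S ribosomal DNA and 0.44 over the 21 in the 5S array. In all of these kinds points can share reads of the same repeat. These values are descriptions across peaks and not across replicates.

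At the 229 unique start sites the median U2AF1 knockdown fold was 4.81, against 5.49 for the 683 such peaks in all 3 lists, 4.78 for the 78 shared with the control list alone and 4.44 for the 164 of the U2AF1 knockdown list alone. The median DHX9 knockdown fold of the overlapping DHX9 peaks was 5.44, against 6.86 for peaks in all 3 lists and 5.00 for peaks found after DHX9 knockdown alone. When the 1154 unique start-site peaks of the U2AF1 knockdown list were ordered by fold, 19.8% belonged to the peaks described here. In group 1 of 10, of the highest folds, they were 2.59% (95% Wilson interval 0.883 to 7.33), in group 7 of 10 32.8% (24.9 to 41.7) and in group 10 of 10 23.3% (16.5 to 31.8). Few of them were thus among the highest folds. A peak missing from the control list can have signal under the caller's threshold there, and the lists do not show it.

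**Figure D2:**
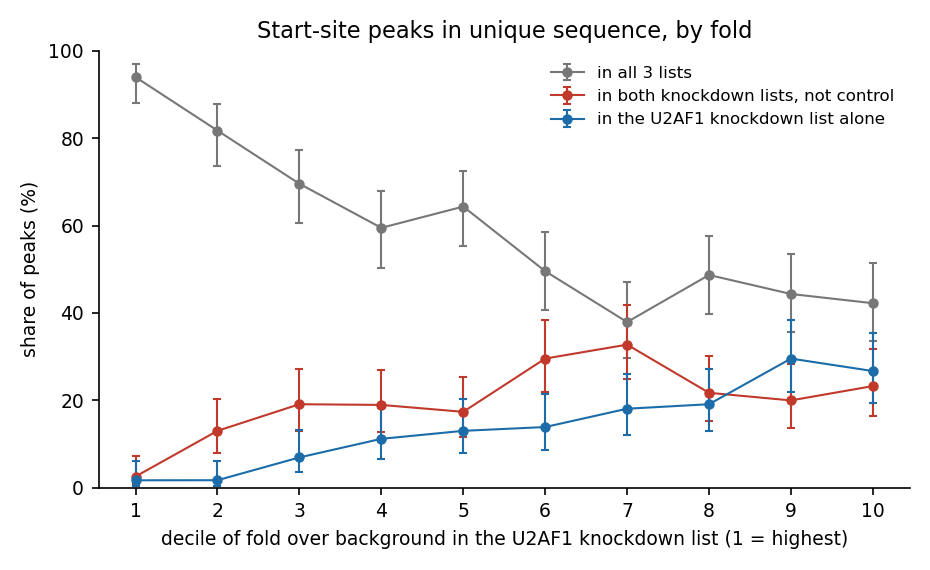
Share of the unique start-site peaks of the U2AF1 knockdown list (percent, with 95% Wilson intervals) that were in all 3 lists, in both knockdown lists without the control, or unique to the U2AF1 knockdown, in 10 groups by fold from highest (1) to lowest (10). The share in all 3 lists was 94.0% in group 1 and 42.2% in group 10, and the share in both knockdown lists without the control was 2.59% and 23.3%.

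Location was given for the 324 peaks on annotated sequences. Their summits were at a start site in 83.0% (78.6 to 86.7), inside a gene and farther away in 8.33% (5.79 to 11.9) and outside genes in 8.64% (6.05 to 12.2). Peaks in all 3 lists were at start sites in 93.6% (91.7 to 95.1), and peaks of the U2AF1 knockdown list alone in 49.1% (44.1 to 54.1). For U2AF1 knockdown peaks shared with the control list alone it was 70% (61.3 to 77.5). Peaks of the DHX9 knockdown list alone were at start sites in 89.3% (87.9 to 90.5), a higher share than the 83.0% here. Seen the other way, 20.8% of U2AF1 knockdown peaks at start sites, 17.6% of those in gene bodies, 15.1% of those outside genes and 39% of those on sequences without annotation were among the 363. In unique sequence, 229 of 234 annotated peaks were at a start site and only 2 in a gene body and 3 outside genes. The gene-body and intergenic peaks were thus mostly in repeated sequence. The 2 in gene bodies were in FCRLB and TMEM242, and the 3 outside genes were nearest to CDR2L, FTOP1 and ENSG00000249828.

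**Figure D3:**
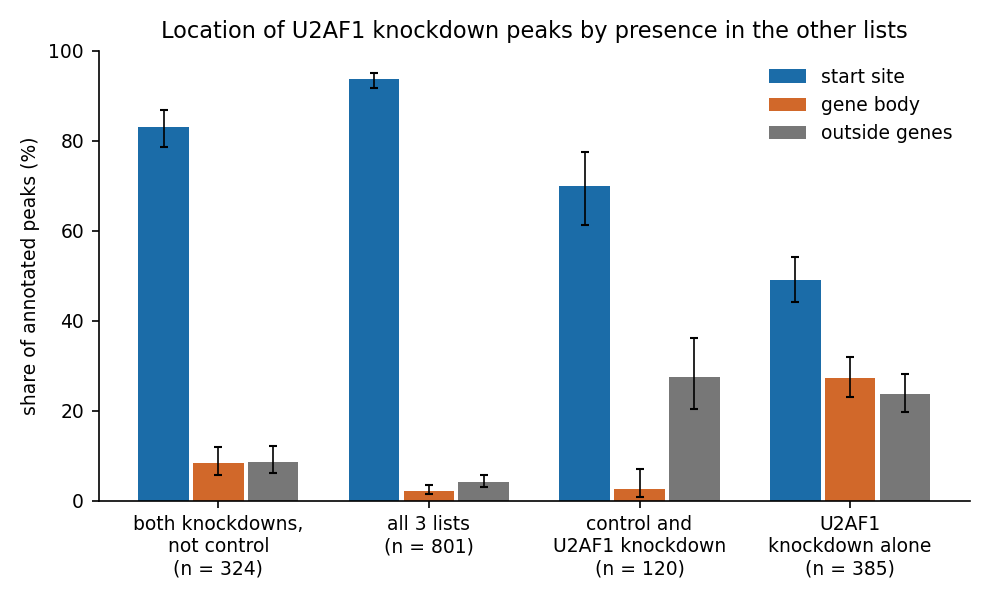
Share of annotated U2AF1 knockdown peaks (percent, bars from 0 with 95% Wilson intervals) with the summit at a start site, in a gene body or outside genes, by presence in the other lists. Peaks in both knockdown lists without the control stand at 83.0% start sites, between those in all 3 lists at 93.6% and those of the U2AF1 knockdown list alone at 49.1%.

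The median distance between the summits of both knockdown lists was 54 bp over the 363 peaks, and 242 were within 100 bp and 318 within 250 bp. The rule required the peaks to overlap, which by itself keeps summits near each other. In the 5S array the median was 166 bp. At unique start sites the U2AF1 knockdown summit lay a median of 33 bp downstream of the nearest start and the DHX9 knockdown summit 27 bp downstream. Of these 229 summits, 156 were downstream and 72 upstream. The nearest start belonged to a protein-coding gene in 209, a lncRNA in 17, and a processed pseudogene, a miRNA and an unclassified transcript in 1 each, and 223 had a coding start within the window. In 36, or 15.7% (11.6 to 21.0), coding genes started in both directions, against 14.2% (11.8 to 17.02) of peaks in all 3 lists.

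The median gap to the nearest control peak was 219310 bp at unique start sites. The rule excluded overlap with control peaks and no gap of other peaks was set beside this one, so it is a description. Over the 363 peaks, 25 had a control peak within 1000 bp, 16 of them in 45S ribosomal DNA, and 53 within 5000 bp, while 15 lay on sequences with no control peak. The peaks nearest to the boundary of the rule were XPO5, which exports precursor miRNAs, with a gap of 77 bp, H3-3A, a gene of the histone variant H3.3, with 218 bp, 45S copies with 229 and 274 bp, and RAN, the GTPase of nuclear transport, with 303 bp. Just outside it were U2AF1 knockdown peaks that shared only 21 bp with a control peak at TOLLIP, 33 bp at FAM13B, 78 bp at ATRN, 79 bp in a 45S copy and 80 bp at NFYC. The control peak beside XPO5 was nearest to a start of POLH, and the knockdown summits at XPO5 were 407 bp apart. At H3-3A the start nearest to the U2AF1 knockdown summit was that of the lncRNA H3-3A-DT. At 14 unique start sites, among them XPO5, H3-3A, RAN, FOXO3, NDUFAF3 and TRIM52, a gene starting within 1000 bp of the summit also had a control peak within 1000 bp of one of its starts.

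The strongest of the 363 peaks by summed rank was at ENSG00000213365, a processed pseudogene on chromosome 11 (72280146 to 72280398, a noncoding exon). Its fold was 16.1 in the U2AF1 knockdown list, rank 25 of 1730, and 12.01 in the DHX9 knockdown list, rank 118 of 4443, and the nearest control peak was 534000 bp away. The peak was 253 bp long, and 239 of those 253 bases, 94.5%, matched the U2AF1 transcript U2AF1-201 in a local alignment. No other of the 363 had a U2AF1 knockdown fold over 10.

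The start of U2AF1 itself was also among the 363. Its peak (chromosome 21, 43107476 to 43107691, in repeated sequence) had a fold of 4.26, rank 1100, and overlapped a DHX9 knockdown peak of fold 4.48, rank 3210, by 46 bp, with summits 177 bp apart. The control list had its nearest peak 12689 bp away, farther inside the gene, and that peak was shared with the U2AF1 knockdown list. DHX9 and POLR2A had peaks in all 3 lists.

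Promoters of named genes followed in rank. BSG, which encodes basigin, a chaperone of lactate transporters, had a fold of 6.79 after U2AF1 knockdown and 11.4 after DHX9 knockdown, with its summits 2 bp apart. CLCN7, a lysosomal chloride and proton exchanger, had 6.45 and 8.51. The snoRNA host gene SNHG11 had 6.80 and 7.51, and PLBD2, a lysosomal protein, had 6.55 and 7.82. B4GALT5, a galactosyltransferase of glycolipid synthesis, had 7.096 and 6.91. LRRC58 had 6.55 and 7.35, SOWAHC 5.73 and 9.34 and ANGEL1 7.78 and 6.54. Their ranks in the U2AF1 knockdown list were between 159 and 464, and the nearest control peak to any of these 8 promoters was 40614 bp away, at BSG.

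Genes of shared function were counted over 24 lists of symbols, by U2AF1 knockdown peaks at their starts. In 17 lists at least 1 peak was among the 363. The lists are small, several symbols were matched by pattern alone, and 9 of the 22 lists with at least 5 peaks exceeded the 21% of the whole list, so no list is set apart by these counts.

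Of 11 peaks at oxidative phosphorylation genes, 5 were among the 363: the complex I subunits NDUFB1 and NDUFB2 and the complex I assembly factors NDUFAF3, NDUFAF5 and NDUFAF6. NDUFAF6 had a U2AF1 knockdown fold of 4.81 and a DHX9 knockdown fold of 8.15, and NDUFB2 had 5.00 and 5.08. NDUFAF3 had 3.00, rank 1521 of 1730, and 7.51, with summits 737 bp apart. Of 6 peaks at mitochondrial ribosomal protein genes, 2 were among the 363, MRPL12 with folds of 6.67 and 4.44 and MRPL17 with 6.21 and 4.44. The start nearest to both MRPL12 summits was that of a lncRNA on the opposite strand, 68 and 63 bp away. Of 3 peaks at import and related genes there were 2, at CHCHD7 and at TOMM40, the pore of the outer membrane, with 6.43 and 4.89. Cytosolic ribosomal proteins gave 1 of 19, RPLP2, and 17 of the 19 were in all 3 lists.

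Among 6 peaks at spliceosomal protein genes, 2 were among the 363, at U2AF1 and at the start of SPPL2B, the latter with folds of 6.34 and 6.72. Its summits lay 97 bp (U2AF1 knockdown) and 46 bp (DHX9 knockdown) downstream of the SPPL2B start. The SPPL2B peak was counted through LSM7, a component of the ring that binds U6 RNA, which starts within 1000 bp of the summit. None of 11 peaks at SR and hnRNP genes was among the 363, and 10 of the 11 were in all 3 lists. Elongation and pausing factors gave 1 of 10, AFF4, the scaffold of the super elongation complex, with folds of 5.17 and 7.65. General transcription factors and Mediator gave 2 of 8, TAF8, a subunit of TFIID, with 5.64 and 6.67, and the pseudogene GTF2IP4. Of 6 peaks at R-loop factors 1 was among the 363, at DDX21, a nucleolar helicase that can unwind R-loops, with folds of 5.70 and 5.72. RNA polymerase subunit genes gave 0 of 5, with 5 of 5 in all 3 lists.

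Cell cycle genes gave 5 of 11. CDC20, an activator of the anaphase-promoting complex, had folds of 4.25 and 6.89, and PLK4, the kinase of centriole duplication, had 4.12 and 4.09. CCND3 shared its promoter with TAF8 and CDC40 with WASF1, and CDC42SE2 entered by its symbol alone. Ubiquitin ligases and conjugases gave 10 of 39, among them RNF11, UBE2G1 and FBXO34 with U2AF1 knockdown folds of 5.57, 5.31 and 5.94. Zinc finger genes gave 7 of 21, with ZNF852 at 4.91 and 8.75. Vesicle transport gave 5 of 17, with the GTPase ARF1 at 6.50 and 4.99. Translation factors gave 1 of 9, EIF5, the activator of eIF2 GTP hydrolysis, at 4.75 and 8.05. Heat shock chaperones gave 2 of 10, DNAJC3 and DNAJB6. Immediate early genes gave 1 of 9, ZFP36L2, which binds AU-rich messages, at 5.18 and 8.78.

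Small nuclear RNA genes gave 0 of 54 U2AF1 knockdown peaks, and 54 of 54 were in all 3 lists. Taking 3 counts as the limit for counting error allows a share of up to 5.56%. Replication-dependent histone genes gave 0 of 22, which allows up to 13.6%, with 21 in all 3 lists, and snoRNA genes 0 of 16. Of the 223 coding genes at unique start sites among the 363 peaks, 5, or 2.24%, had a single exon. This was 4.38% of 639 genes for peaks in all 3 lists, which hold the histone genes, 5.19% for U2AF1 knockdown alone, 1.72% for DHX9 knockdown alone and 5.64% of all coding genes. Their first exon had a median of 224 bases, against 207 for peaks in all 3 lists.

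Base composition around the summit was computed over 501 bp at unique start sites. The median GC content was 73.1% for the 229 peaks, 72.3% for those in all 3 lists and 70.7% for the 1906 of the DHX9 knockdown list alone, while all 20007 coding starts, with the window on the start, had 64.7%. GC skew, the excess of G over C on the coding strand in the first 500 bp, a feature of promoters that form R-loops, had a median of 0.0591, against 0.0630 in all 3 lists and 0.0583 in the DHX9 knockdown list alone. It was positive in 70.3%, 69.7% and 70.0% in the same order. A pattern of 4 runs of at least 3 G with 1 to 7 bases between them, on either strand, was found in 56.8% (50.3 to 63.0), 55.3% and 54.6%. Peaks shared with the control list alone had this pattern in 71.8% (61.0 to 80.6), and peaks of the U2AF1 knockdown list alone had a median skew of 0.0368.

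Letter motifs were searched on both strands of the same 501 bp. GGGCGG was in 92.1% of the 229 windows (87.9 to 94.97), 90.04% of those in all 3 lists and 69.6% of all coding starts. CCAAT was in 29.7% (24.2 to 35.9), against 40.9% (37.2 to 44.6) in all 3 lists, 35.0% in the DHX9 knockdown list alone, 29.3% in the U2AF1 knockdown list alone and 43.5% of all coding starts. CCGGAAG, the letters of an ETS factor site, was in 25.3%, against 17.9% in all 3 lists, 28.1% in the DHX9 knockdown list alone and 16.8% of all coding starts. In the same order, GCATGCGC, the letters of an NRF1 site, was in 11.4%, 7.76%, 8.29% and 4.66%. TGACGT, the core of a CREB site, was in 15.7%, 14.5%, 13.9% and 11.3%, and GGGTGGGG in 13.97%, 16.7%, 17.5% and 19.0%.

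TATAAA, the letters of the TATA box, was in 6 of 229 windows, 2.62% (1.21 to 5.60). It was in 84 of 683 windows, 12.3% (10.0 to 15.0), of peaks in all 3 lists and in 11.8% of all coding starts. With histone and noncoding genes left out it was 2.87% (1.32 to 6.12) against 9.95% (7.76 to 12.7). Peaks of the DHX9 knockdown list alone had 2.72% (2.05 to 3.61) on that count, against 2.87% here. The 6 windows belonged to BSG, EIF5, PIEZO1, PPP1R15A, COL6A2 and ZPR1, and in PIEZO1, PPP1R15A and COL6A2 the letters lay 27, 30 and 32 bp upstream of the start on the coding strand.

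AAGATGGCG, the letters of a YY1 site, was in 25 of 229 windows, 10.9% (7.51 to 15.6), on the coding strand in 21 of 25. It was in 5.12% (3.71 to 7.04) of windows in all 3 lists, 5.88% (4.91 to 7.02) in the DHX9 knockdown list alone and 3.52% of all coding starts. It was 1 of 8 motifs searched, chosen after the peaks were known, and no test was made. The 5 coding-strand sites at the peaks of highest summed rank are shown, in capitals with 10 bases on each side.
RBM15B, chr3:51391294-51391322, plus strand: ccttttgtccAAGATGGCGgcgccggggg
PDHX, chr11:34916643-34916671, plus strand: gaaggccgtcAAGATGGCGgcctcctgga
EIF5, chr14:103334629-103334657, plus strand: gcggccgcacAAGATGGCGgcggccgccg
PPARGC1B, chr5:149730330-149730358, plus strand: ccgcggctggAAGATGGCGgggaacgact
CNNM2, chr10:102918504-102918532, plus strand: acccaaagtaAAGATGGCGggcgggcagg
RBM15B, an RNA-binding protein of the m6A writer complex, had folds of 7.84 and 6.05. In these genes the site began 19, 12, 247, 30 and 157 bp downstream of the start, in the order shown. The search reached 250 bp either side of the U2AF1 knockdown summit, and the EIF5 site lay outside both of its knockdown peaks. A match is a description of letters and says nothing of YY1 binding.

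The tandem 5S array held 1 control peak and many knockdown peaks. It has 17 genes of 119 bp at a median spacing of 2241 bp. The control peak lay over RNA5S5, with a fold of 2.30. The U2AF1 knockdown list had 26 peaks over 13.7 kb and the DHX9 knockdown list 24 over 14.4 kb, against 0.290 kb in the control list. Of the 26, 21 were among the 363, or 80.8%, against 21% of the whole U2AF1 knockdown list, a share that rests on the single control peak of the array. They lay over 11 of the 17 genes. Their U2AF1 knockdown folds were between 2.14 and 3.73. With a −log10 q limit of 5 in the knockdown lists 10 of the 21 were left, and with lists of equal length 9.

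Within the unit the 21 summits formed separate groups. Of these, 7 lay between 181 and 35 bp upstream of a 5S gene and 14 between 517 and 1105 bp downstream of its start, and 0 lay inside a gene. All 26 U2AF1 knockdown summits were likewise outside the genes, while 3 of the 24 DHX9 knockdown summits and the control summit were inside. The highest fold after U2AF1 knockdown was the peak over RNA5S8, 3.73, and the highest after DHX9 knockdown the peak over RNA5S14, 3.49. With 16 of the 17 gene sequences identical, folds of single genes cannot be told apart by sequence within the gene.

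**Figure D4:**
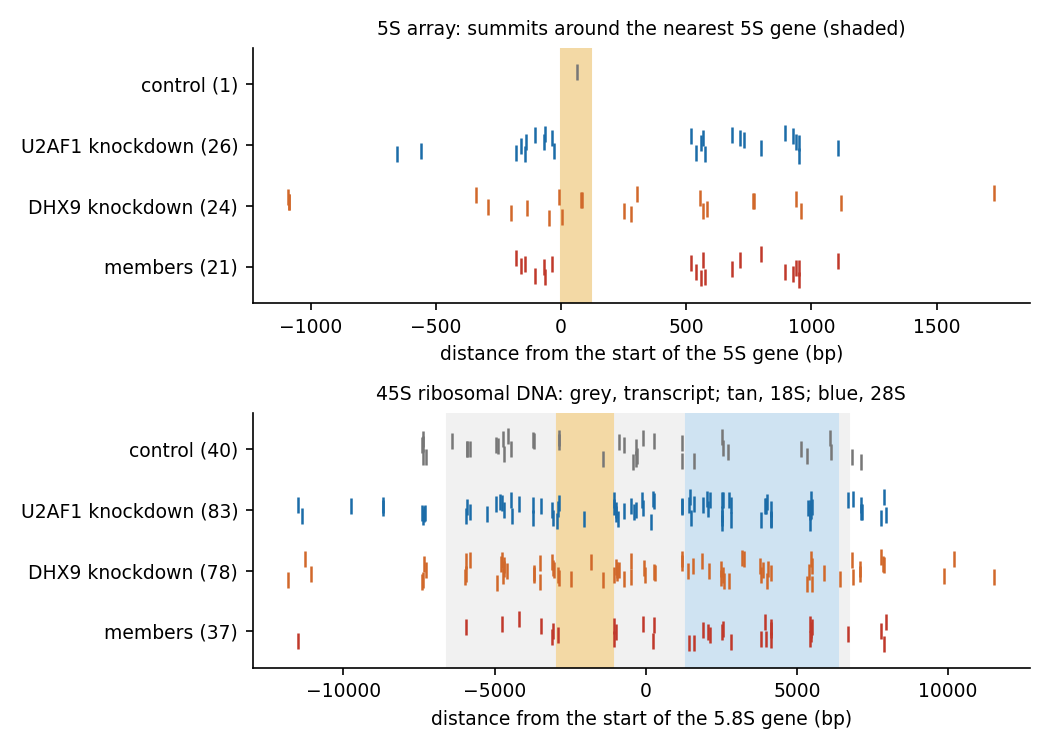
Summit positions in repeat units for each of the 3 lists and for the peaks in both knockdown lists without the control (members), with the number of summits beside each row. Upper, distance from the start of the nearest 5S gene in bp, where the 21 members lie beside the shaded gene and not in it; lower, distance from the start of the 5.8S gene in bp, where 19 of 37 members lie in the 28S gene.

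In 45S ribosomal DNA, which encodes 18S, 5.8S and 28S RNA, there were 40 control peaks over 21.5 kb, 83 U2AF1 knockdown peaks over 63.7 kb and 78 DHX9 knockdown peaks over 62.3 kb. Of the 83, 37 were among the 363, or 44.6%. The 8 copies in hg38 held between 2 and 8 of them each. By place in the unit, 19 were in the 28S gene, 6 in the 5′ external spacer, 4 in the first and 2 in the second internal spacer, 3 downstream of the transcript, and 1 each in the 18S gene, the 3′ external spacer and upstream. The 28S gene had 8 control, 30 U2AF1 knockdown and 23 DHX9 knockdown peaks. The 5′ external spacer had 12, 17 and 18 in the same order. With no control peak allowed within 1000 bp, 21 of the 37 were left, and within 5000 bp, 3. The widest overlap of all 363, 2188 bp, had its U2AF1 knockdown summit in the 5′ external spacer of a copy on a chromosome 22 contig, with folds of 4.44 and 3.05. Its DHX9 knockdown summit lay 1416 bp away, upstream of the transcript.

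A GC-rich tandem repeat lay in 9 of the 363 peaks. It had 1 control peak, 26 U2AF1 knockdown peaks and 24 DHX9 knockdown peaks. Its words were taken from the 363 peaks themselves, which overlap no control peak. The choice of words thus favours the knockdown lists, and the 9 peaks and the counts by list are a description. A further 17 were found after U2AF1 knockdown alone and 14 after DHX9 knockdown alone, so most copies with a peak were in 1 knockdown list. Of the 9, 3 were left with the −log10 q limit of 5 and 2 with lists of equal length. The single control peak overlapped a DHX9 knockdown peak on an alternate contig. The repeat occurs at 1484 places in hg38. The 9 peaks were 80.1% to 84.2% GC, each held the 4-run G pattern, 3 lay in gene bodies and 6 outside genes. Their U2AF1 knockdown folds were between 3.87 and 8.24. The highest were near BCKDK, 8.24 and 5.91 in the DHX9 knockdown list, and near MARCHF5, 8.19 and 6.72. Peaks in the introns of ABCC2 and LINC00486 had U2AF1 knockdown folds of 5.24 and 6.55.

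**Figure D5:**
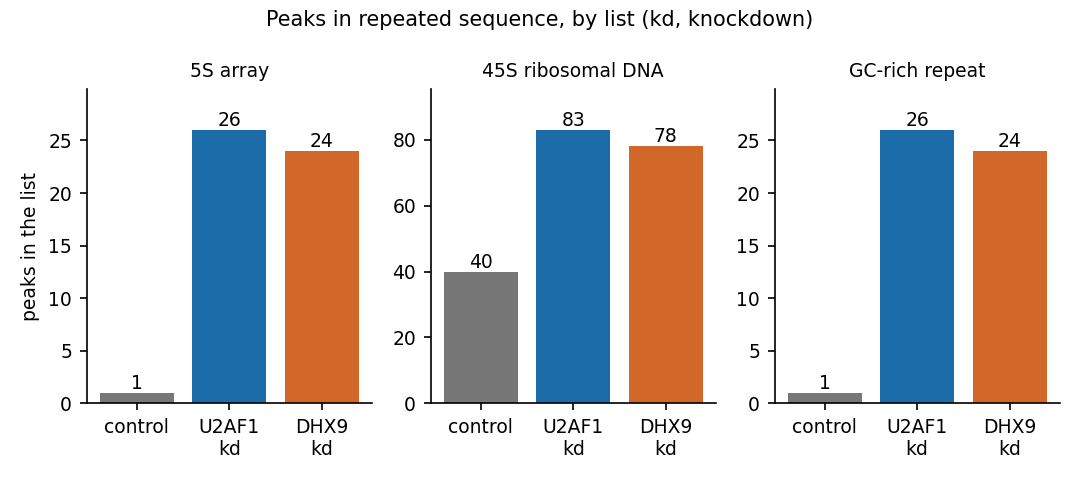
Number of peaks (bars from 0) in the 5S array, 45S ribosomal DNA and the GC-rich repeat by list: control, U2AF1 knockdown, DHX9 knockdown. Control bars are 1, 40 and 1, and the knockdown bars are 26 and 24, 83 and 78, and 26 and 24.

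The other 60 peaks in repeated sequence were scattered. On chromosome X, 3 lay in introns of the lncRNA DANT2, where the 31-base words occur at a median of 18 places, with U2AF1 knockdown folds of 2.86, 2.42 and 2.59 and DHX9 knockdown folds of 2.85, 2.01 and 3.02. A group of 4 was rich in GGAAT, the pentamer of pericentromeric satellite, 3 on chromosome 5 and 1 on an unplaced contig, with U2AF1 knockdown folds of 1.22 to 1.80, the low end of all 363. The other 56 had folds of 1.45 to 7.02 with a median of 2.76, and 17 were at start sites. Among these start sites were NUDT4 with folds of 7.02 and 5.33, NOTCH2 with 4.28 and 4.22 and GCSH with 5.09 and 4.82, whose words occur at a median of 3, 3 and 2 places.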

How the data were processed

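POLR2A ChIP-seq peak lists of HEK293T cells were used, 1 per condition (control shRNA, U2AF1 knockdown, DHX9 knockdown). Per the submitters' processing notes, Bowtie2 2.4.5, deepTools 3.5.1, MACS2 2.2.7.1 and hg38 were used, with no role stated. Whether replicates were pooled is not given in the sources used here; control peak names end in a suffix that reads as replicate 1. The deposited fold is the authors' ratio over background, given with a −log10 q-value per peak by the authors. Depth is unknown from the lists, so fold was ranked only within a list, with rank 1 the highest.

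Overlaps of at least 1 bp, summits, GENCODE 44 annotation and hg38 sequence were processed in Python 3.11.15 with pandas 2.3.3, pysam 0.24.0 and Biopython 1.88; overlap code was tested on simulated data. A start site was within 1000 bp of the summit. The 5S array reached 2500 bp beyond its genes and 45S ribosomal DNA 12000 bp around 8 exact 5.8S copies. A GC-rich repeat peak held at least 20 of 156 words of 31 bases found in at least 3 of the 10 repeated peaks with over 100 copies. Intervals are 95% Wilson intervals and cover counting error only. Limits for gene lists with a count of 0 are not Wilson limits but 3 counts divided by the number of peaks. No test was made, since each condition is 1 list. Symbol lists were matched by pattern.

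Peaks were named by a rule: the 10 lowest sums of rank percentiles, the 5 widest overlaps, the 5 nearest and 5 just outside the control boundary, 5 in gene bodies, 5 outside genes, up to 3 per gene list, and U2AF1, DHX9 and POLR2A. Others named were chosen after their values were seen. The peaks and lists were chosen with earlier results of these data known, and the kinds of repeated sequence, the repeat words and the motif letters after the data were seen. Inputs were not analysed separately. The sequences of the repeats are not reported here.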

Additional observations from a re-analysis of the deposited data

How the results depend on the processing

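No paired analysis was possible because the deposit holds a single list for every condition, and for the same reason no replicate could be left out. The 363 peaks became 146 with a −log10 q of at least 5 in the knockdown lists, 178 with that limit in all lists, 208 with equal list lengths and 235 in unique sequence only. That last setting, and the counts by kind of sequence below, were added after the data were seen. In the same first 3 settings unique start sites numbered 75, 96 and 141 of 229, 5S peaks 10, 10 and 9 of 21, and GC-rich repeat peaks 3, 3 and 2 of 9. Requiring summits within 250 bp left 13 in the 5S array. Without a control peak within 1000 bp, 21 of 37 peaks remained in 45S ribosomal DNA, and within 5000 bp, 3. With a −log10 q limit of 5 in every list, control, U2AF1 knockdown and DHX9 knockdown had 1, 21 and 14 peaks in the 5S array, 28, 70 and 59 in 45S ribosomal DNA and 0, 10 and 9 in the GC-rich repeat. At equal list lengths of 1730 they had 1, 26 and 9, then 26, 83 and 47, then 0, 26 and 3. For the GC-rich repeat the words came from the 363 peaks, so its counts favour the knockdown lists in every setting.

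The start-site share was 87.9% at equal list lengths, 87.6% without a control peak within 5000 bp, 97.9% in unique sequence, 76.5% with a window of 500 bp and 71.3% with protein-coding genes only. The gene-body share was 5.17% without a control peak within 5000 bp, 0.855% in unique sequence and 2.47% with protein-coding genes. The share outside genes was 6.04% at equal list lengths, 1.28% in unique sequence and 26.2% with protein-coding genes. The median summit distance was 35 bp and 38.5 bp with a −log10 q of at least 5 in the knockdown lists and in all lists, 36.5 bp at equal list lengths and 43 bp with summits within 250 bp. Median GC content was 74.1% within 150 bp of the summit and 68.4% within 500 bp. Of 104 values in other settings 71 stayed within 1.5 times the count or within its interval, and 33 moved. A change of sign was possible only for the summit distance from the start and for GC skew, and none occurred. The depth behind each list is unknown here.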
